A study of Mus musculus with 18 samples.

Results

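The mRNA levels of 10 genes of oxidant production and antioxidant defence were followed in a mouse mammary carcinoma line, 4T1, which derives from BALB/c and is studied as triple-negative breast cancer. They were, of 35976 symbols in the files, Nox4, Cyba, Nfe2l2, Keap1, Nqo1, Hmox1, Gclc, Gclm, Txnrd1 and Srxn1. Nox4 was selected on its several-fold higher count in cells depleted of Dap5, so its difference between the arms is a description with no test. The other 9 were taken for their role, with no measured threshold, and all 10 passed the filter on low counts. Each symbol had 1 row in every file.

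The study had 18 libraries: 3 for every combination of 2 hairpin arms and 3 RNA fractions, hence 6 groups. In the control arm the cells expressed a non-silencing hairpin (NSi). In the other arm they expressed a hairpin against Dap5 (shDap5), whose protein is a translation initiation factor encoded by Eif4g2. Both arms received doxycycline at 2 µg/ml for 6 days to induce the hairpin, and uninduced cells were not analysed here. Polyadenylated RNA came from whole lysate (input), from light polysomes or from heavy polysomes of a sucrose gradient. Each arm was 1 hairpin line, so a difference that the lines had before induction and one that followed depletion cannot be told apart. The labels do not say if replicate libraries were grown as separate cultures, and p-values then reflect only how these libraries vary, which may be technical.

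Total counts ran from 30385863 to 71331978 per library. Eif4g2 stood at 799, 759 and 852 CPM (counts scaled to the library by the TMM method) in NSi inputs 1, 2 and 3, and at 592, 340 and 671 CPM in the shDap5 inputs. It did not pass the test in input (log2 change -0.59, SE 0.26, adjusted p = 0.202, edgeR) and fell in light polysomes (-1.60, adjusted p = 0.00204, edgeR) and heavy polysomes (-1.45, adjusted p = 0.00349, edgeR). Epithelial markers summed to 2621 to 2937 CPM in NSi inputs and 3738 to 4375 CPM in shDap5 inputs. The progesterone receptor gene Pgr had 0 counts in every library, whereas Esr1, the estrogen receptor gene, was detected at a mean of 13.4 CPM in NSi inputs and 20.9 CPM in shDap5 inputs. Erbb2 stood at 60.7, 58.3 and 60.4 CPM in NSi inputs and at 86.2, 86.6 and 96.1 CPM in shDap5 inputs. Esr1 and Erbb2 both rose in shDap5 input in the main edgeR fit, against 3.01% of all tested genes. These are bulk samples, in which fewer cells with an mRNA and less of that mRNA per cell cannot be told apart.

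NOX4 is a membrane NADPH oxidase that transfers electrons from NADPH to oxygen and releases mainly hydrogen peroxide. It needs the subunit p22phox, the product of Cyba, but not the cytosolic organisers and activators that other NADPH oxidases use, and its output is therefore known to follow its amount. NRF2, encoded by Nfe2l2, is the main transcription factor of the antioxidant response: KEAP1 holds it for degradation, and oxidants or electrophiles release it to bind antioxidant response elements with small MAF proteins. Its known targets include Nqo1, Hmox1, Gclc, Gclm, Txnrd1 and Srxn1.

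The upstream sequences of the members were examined for the core of the antioxidant response element, because the targets share NRF2 as a regulator yet differed in how their mRNA compared between the arms. RefSeq promoters (GRCm38.p6, another build than that of the counts) were found for 8 of the 10 genes, the exceptions being Hmox1 and Gclc, and gave 10 windows of 250 bases before the start site, 3 of them for Txnrd1. The core TGACNNNGC, searched on both strands, lay in 3 of the 10 windows, those of Nfe2l2 and Gclm and 1 of Txnrd1, whereas 10.2% of 32851 mouse windows of that length held it. The windows of Nox4 and Nqo1, whose levels differed most between the arms, and those of Nfe2l2 and Gclm, which hold the core, are given 5′ to 3′ on the strand of the gene with the core in capitals.
Nox4 (chr7:87246399-87246648, + strand): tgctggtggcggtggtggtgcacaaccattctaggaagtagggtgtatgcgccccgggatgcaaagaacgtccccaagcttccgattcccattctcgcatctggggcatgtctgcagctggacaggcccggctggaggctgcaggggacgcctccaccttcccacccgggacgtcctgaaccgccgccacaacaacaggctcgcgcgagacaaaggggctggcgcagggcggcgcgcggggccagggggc
Nqo1 (chr8:107403206-107403455, - strand): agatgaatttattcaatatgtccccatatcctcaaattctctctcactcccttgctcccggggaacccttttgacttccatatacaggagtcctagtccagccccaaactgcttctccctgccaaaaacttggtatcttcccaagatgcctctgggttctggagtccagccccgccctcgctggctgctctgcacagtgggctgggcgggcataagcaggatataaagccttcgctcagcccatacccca
Nfe2l2 (chr2:75704664-75704913, - strand): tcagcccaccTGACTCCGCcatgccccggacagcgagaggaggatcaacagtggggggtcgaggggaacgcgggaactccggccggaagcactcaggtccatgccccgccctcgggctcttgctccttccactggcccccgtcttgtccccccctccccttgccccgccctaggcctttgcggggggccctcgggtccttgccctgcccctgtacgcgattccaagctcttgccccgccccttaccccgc
Gclm (chr3:122245307-122245556, + strand): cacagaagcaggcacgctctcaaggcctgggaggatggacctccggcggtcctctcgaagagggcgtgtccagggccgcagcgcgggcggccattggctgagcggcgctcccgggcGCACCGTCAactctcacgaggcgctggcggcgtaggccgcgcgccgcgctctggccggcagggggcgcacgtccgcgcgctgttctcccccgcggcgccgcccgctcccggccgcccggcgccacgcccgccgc
In Nfe2l2 the core reads TGACTCCGC on the gene's strand, with its first base 240 bases before the start site. In Gclm it lies on the other strand, reads GCACCGTCA in the printed direction and starts 134 bases before the start site. No match in the Nox4 and Nqo1 windows says only that these letters are absent there, and a match is not evidence of a bound site. The windows of Cyba, Keap1 and Srxn1, which did not pass between the arms in the main edgeR fit, held no match either. The windows printed here therefore do not set genes that differed between the arms apart from genes that did not. Only this form of the core was searched, so a window without a match may hold another form. Sequence beyond the 250 bases was not searched.

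Nox4 mRNA was higher in every shDap5 library than in every NSi library of the same fraction. In input it stood at 5.26, 5.37 and 5.87 CPM in NSi libraries 1, 2 and 3 and at 24.2, 34.9 and 22.9 CPM in the shDap5 libraries. These came from 334 to 377 reads in each NSi input and 1189 to 2136 reads in each shDap5 input. The ratio of the means was 4.97, and the fitted log2 difference was 2.31 (SE 0.24).

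In light polysomes Nox4 stood at 4.08, 4.59 and 3.86 CPM in NSi and at 20.4, 33.1 and 22.2 CPM in shDap5, a ratio of means of 6.03 (log2 2.59, SE 0.25). In heavy polysomes it stood at 1.97, 2.01 and 2.43 CPM in NSi, from 55 to 98 reads, and at 12.3, 19.1 and 10.6 CPM in shDap5, a ratio of 6.56 (log2 2.71, SE 0.25). The arm difference was larger by 0.28 (SE 0.33) in light and by 0.40 (SE 0.34) in heavy polysomes than in input on the log2 scale, values given with no test. Library 2 was the highest of the shDap5 libraries in each fraction. The lowest Eif4g2 level was in shDap5 library 2 in input, but in shDap5 library 3 in light (274 CPM) and heavy polysomes (222 CPM). Without the shDap5 libraries numbered 2 the log2 difference in heavy polysomes was 2.42, and without shDap5 input 2 that in input was 2.10.

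Ordered by mean level, Nox4 was highest in shDap5 input (27.3 ± 6.64 CPM, SD, n = 3), followed by shDap5 light polysomes (25.2 ± 6.85 CPM), whose ranges overlapped. Then came shDap5 heavy polysomes (14.02 ± 4.48 CPM), NSi input (5.50 ± 0.327 CPM), NSi light polysomes (4.18 ± 0.372 CPM) and NSi heavy polysomes (2.14 ± 0.256 CPM), with no overlap between neighbours. The highest mean was 12.8 times the lowest. The lowest shDap5 library of any fraction, at 10.6 CPM in heavy polysomes, lay above the highest NSi library of any fraction, at 5.87 CPM in input.

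**Figure D1:**
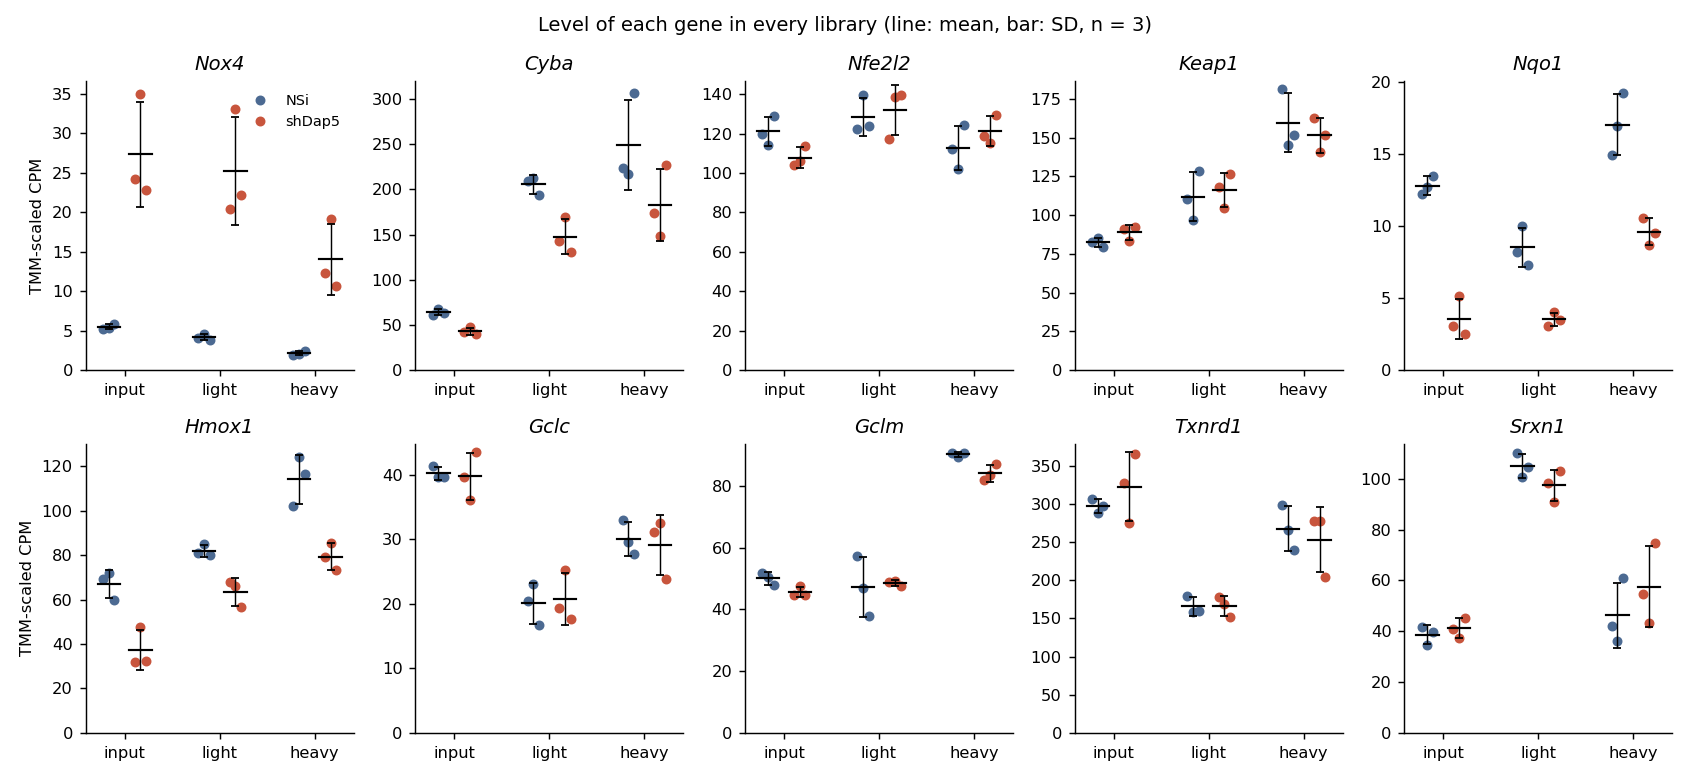
Level of each of the 10 genes (vertical axes, TMM-scaled CPM, each from 0) in every library of the input, light and heavy fractions, NSi in blue and shDap5 in red, with the mean as a line and the SD as a bar (n = 3). Nox4 is higher in all shDap5 libraries, Nqo1 and Hmox1 are lower in all of them within each fraction, and the arms overlap in all 3 fractions for Keap1, Gclc, Txnrd1 and Srxn1.

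Along the gradient, which the choice of Nox4 did not use, Nox4 mRNA was lower in heavy than in light polysomes in both arms. The log2 change was -0.96 (SE 0.25, adjusted p = 0.00372, edgeR) in NSi and -0.85 (SE 0.23, adjusted p = 0.00700, edgeR) in shDap5, and no library of the heavy fraction overlapped the light fraction of its arm. Against input, the change of Nox4 in heavy polysomes was -1.36 (adjusted p = 0.000239, edgeR) in NSi and -0.96 (adjusted p = 0.00237, edgeR) in shDap5. These comparisons share the heavy libraries and so are not separate evidence. The light fraction did not differ from input past the threshold in NSi (-0.40, adjusted p = 0.172, edgeR) or in shDap5 (-0.12, adjusted p = 0.697, edgeR), and the latter value was 0.09 without shDap5 input 2. In NSi the light fraction differed past the threshold without the shDap5 libraries numbered 2 (adjusted p = 0.0380, edgeR). It also passed with the library number as a block within arm (adjusted p = 0.0396, edgeR). Light polysomes and input were not read as pairs, so no weight is put on that call. A CPM is relative to the total of its own fraction, so these differences describe how Nox4 ranked among the mRNAs of a fraction, not how much of it the fraction held.

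Cyba, which encodes the p22phox partner of NOX4, had values opposite in direction to those of Nox4. In input it stood at 60.9, 67.8 and 63.4 CPM in NSi and at 42.5, 47.4 and 39.8 CPM in shDap5, without overlap. The log2 difference was -0.57 (SE 0.17) and missed the threshold (adjusted p = 0.0526, edgeR). In light polysomes Cyba stood at 210, 213 and 194 CPM in NSi and 143, 169 and 131 CPM in shDap5, again without overlap (-0.47, SE 0.17, adjusted p = 0.147, edgeR). In heavy polysomes the arms overlapped, with 223, 217 and 306 CPM in NSi and 174, 149 and 227 CPM in shDap5 (-0.44, SE 0.17, adjusted p = 0.175, edgeR). With the library number as a block within each fraction, Cyba passed in all 3, at -0.57 in input (adjusted p = 0.000573), -0.48 in light (0.00303) and -0.45 in heavy polysomes (0.00437), all edgeR. In input Cyba passed under 7 of 13 alternative settings, among them fits with no block, such as DESeq2 and edgeR without shDap5 input 2 (-0.64, adjusted p = 0.0421).

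The rest of the NADPH oxidase family gave no difference past the threshold in the main edgeR fit, which has no block. Of 17 genes listed, 11 were tested, and apart from Nox4 none of them passed in input, light or heavy polysomes with edgeR, with 2, 3 and 2 of the other 10 at an unadjusted p under 0.05. Over all 15072 genes 2945, 2428 and 2585 were under that p, so these counts were near the background. DESeq2 called Cyba in input, Poldip2 in light polysomes and none in heavy polysomes, and with the block within each fraction edgeR called Cyba and Poldip2 in all 3. Rac1, a small GTPase that activates several NADPH oxidases, stood at 350 CPM in NSi and 379 CPM in shDap5 inputs. Poldip2, whose product binds p22phox and raises NOX4 activity, stood at 82.9 and 101 CPM, with a log2 difference of 0.29 (SE 0.13, adjusted p = 0.240, edgeR). Noxo1, the organiser of NOX1, stood at 2.35 and 2.61 CPM. The catalytic genes Nox1, Cybb and Nox3, the maturation factor Duoxa2 and the cytosolic subunit Ncf1 were below the filter, with at most 0.420 CPM in any library. The dual oxidases Duox1 and Duox2 had means of 0.254 and 0.141 CPM in NSi inputs, and 0.0998 and 0.184 CPM in shDap5 inputs, and per kilobase of exon they stood at 0.0482 and 0.0231 CPM in NSi and 0.019 and 0.0301 CPM in shDap5 inputs, below Nox4 at 1.39 and 6.92 CPM.

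Nfe2l2 itself did not differ between the arms past the threshold. It stood at 120, 114 and 129 CPM in NSi inputs and at 104, 106 and 114 CPM in shDap5 inputs, where the arms did not overlap (log2 -0.17, SE 0.13, adjusted p = 0.531, edgeR). In light polysomes the difference was 0.04 (SE 0.13) and in heavy polysomes 0.10 (SE 0.13), and the arms overlapped in both. Its 6 group means ran from 108 to 132 CPM, a ratio of 1.22, the narrowest of the 10 genes. Each group overlapped its neighbour in the order of levels.

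Keap1, the adaptor that presents NRF2 for degradation, also gave small differences. It stood at 82.9, 85.2 and 79.4 CPM in NSi inputs and at 90.7, 83.2 and 92.5 CPM in shDap5 inputs, with overlap (0.11, SE 0.14, adjusted p = 0.753, edgeR). The differences were 0.05 in light and -0.07 in heavy polysomes (SE 0.14 each). Of the 15 genes listed as NRF2 regulators, Nfe2l2 and Keap1 included, all were tested and none passed in any of the 3 fractions with edgeR, with 0, 1 and 0 at an unadjusted p under 0.05 in input, light and heavy polysomes, against 2945, 2428 and 2585 of all 15072 genes. The shares of all genes that passed were 6.95%, 3.47% and 3.95%. DESeq2 called none of them in any fraction, and with the block edgeR called Maff in input and Maff and Btrc in light polysomes. The furthest from 0 in input was Maff, a small MAF partner, at -0.55 (SE 0.26, adjusted p = 0.259, edgeR).

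Among the NRF2 targets, Nqo1 and Hmox1 fell in shDap5 input in the main edgeR fit, while Gclc, Gclm, Txnrd1 and Srxn1 did not pass in any fraction. In input 2 of the 9 genes other than Nox4 passed, both lower, against 3.94% of all 15072 tested genes lower and 3.01% higher (6.95% either way). In light polysomes 1 of 9 passed, Nqo1, lower, against 1.64% lower and 1.83% higher (3.47% either way). In heavy polysomes 1 of 9 passed, again Nqo1, lower, against 1.92% lower and 2.03% higher (3.95% either way). The median log2 difference of the 9 was -0.13, 0.01 and -0.08 in the 3 fractions, against 0.05, -0.01 and 0.01 over all tested genes.

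Nqo1 encodes a quinone reductase that keeps quinones from forming reactive semiquinones. In input it stood at 12.3, 12.7 and 13.5 CPM in NSi and at 3.06, 5.14 and 2.52 CPM in shDap5. Every shDap5 input lay below every NSi input, the mean was 27.9% of that in NSi, and the gene fell by 1.84 on the log2 scale (SE 0.23, adjusted p = 9.18e-05, edgeR). In light polysomes it stood at 8.22, 10.02 and 7.33 CPM in NSi and at 3.07, 4.03 and 3.48 CPM in shDap5, without overlap (-1.27, SE 0.23, adjusted p = 0.00484, edgeR). In heavy polysomes it stood at 14.98, 16.9 and 19.2 CPM in NSi and at 10.6, 8.71 and 9.55 CPM in shDap5, also without overlap (-0.83, SE 0.22, adjusted p = 0.0462, edgeR).

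The fitted Nqo1 difference was nearest to 0 in heavy polysomes, but whether it differed between fractions did not pass the test. The difference in heavy polysomes lay 1.01 above that in input on the log2 scale (SE 0.32, unadjusted p = 0.00503 in edgeR, adjusted p = 0.9996). Over 12 alternative settings (edgeR or DESeq2) this value ran from 0.82 to 1.43, and the lowest adjusted p was 0.0683. The call in heavy polysomes was lost without any one of NSi 1, NSi 2, NSi 3, shDap5 1 or shDap5 3, with an adjusted p of up to 0.186, and that in light polysomes was lost without NSi 2 (adjusted p = 0.0688, edgeR). Without shDap5 input 2, which had the highest Nqo1 level of the shDap5 inputs, the change in input was -2.19 (adjusted p = 1.50e-05, edgeR).

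Hmox1 encodes heme oxygenase 1, which breaks heme into biliverdin, iron and carbon monoxide. In input it stood at 69.1, 71.8 and 59.8 CPM in NSi and at 31.9, 47.9 and 32.1 CPM in shDap5. The arms did not overlap, the mean was 55.8% of that in NSi, and the gene fell by 0.84 on the log2 scale (SE 0.16, adjusted p = 0.00309, edgeR). Without the shDap5 libraries numbered 1 the adjusted p was 0.0519, and without shDap5 input 2 the change was -1.06 (adjusted p = 0.000248, edgeR).

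On polysomes the Hmox1 difference kept its sign and missed the threshold in the main edgeR fit. It stood at 80.9, 84.9 and 79.9 CPM in NSi and 67.8, 65.9 and 56.5 CPM in shDap5 light polysomes (-0.37, SE 0.16, adjusted p = 0.246, edgeR). In heavy polysomes it stood at 102, 124 and 116 CPM in NSi and 79.3, 85.5 and 73.3 CPM in shDap5 (-0.52, SE 0.16, adjusted p = 0.0745, edgeR). The arms did not overlap in either fraction. With the library number as a block within each fraction, Hmox1 passed in light (-0.37, adjusted p = 0.0323, edgeR) and heavy polysomes (-0.52, adjusted p = 0.00464, edgeR).

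Hmox1 is also abundant in macrophages, so their markers are given beside it. The 8 macrophage markers summed to 44.2 to 49.7 CPM in NSi inputs and 21.2 to 61.3 CPM in shDap5 inputs. Of these, Cd68 stood at 44.3, 44.9 and 39.9 CPM in NSi inputs 1, 2 and 3 and at 12.4, 50.9 and 10.6 CPM in the shDap5 inputs. Csf1r stood at 2.54, 2.11 and 2.13 CPM in NSi and at 12.2, 9.77 and 9.44 CPM in shDap5 inputs. The defining markers Adgre1, Itgam, Ptprc and Fcgr1 had at most 0.330, 0.156, 0.499 and 0.0613 CPM in any library. Csf1r rose in shDap5 input (log2 2.21) while Lyz2 fell (-3.00), both past the threshold with edgeR. Lyz2 stood at only 0.562, 1.38 and 0.452 CPM in NSi and 0.0131, 0.229 and 0.0577 CPM in shDap5 inputs, so its change rested on few reads. Endothelial markers summed to 2.60 to 3.44 CPM in NSi inputs and 0.900 to 1.62 CPM in shDap5 inputs, and fibroblast markers to 30.8 to 40.5 and 23.3 to 30.6 CPM. Nearly all of the fibroblast sum was Pdgfra, at 35.8, 29.5 and 39.7 CPM in NSi and 22.9, 29.5 and 23.4 CPM in shDap5 inputs. Dcn and Col1a1 had at most 0.288 and 0.900 CPM in any input. Pdgfrb, Lum, Dpt and Thy1 were below the filter, with at most 0.134, 0.0160, 0.0643 and 0.150 CPM in any library.

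The glutathione genes of the set did not differ between the arms past the threshold. Gclc and Gclm encode the catalytic and modifier subunits of glutamate-cysteine ligase, the first step of glutathione synthesis. Gclc stood at 41.4, 39.7 and 39.6 CPM in NSi inputs and at 39.7, 36.1 and 43.5 CPM in shDap5 inputs, which overlapped (-0.02, SE 0.16, adjusted p = 0.976, edgeR). Gclm stood at 51.7, 50.5 and 47.8 CPM in NSi inputs and at 44.7, 47.5 and 44.8 CPM in shDap5 inputs, just apart (-0.13, SE 0.13, adjusted p = 0.670, edgeR). On polysomes the log2 differences of both genes lay between -0.10 and 0.05.

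The thioredoxin genes did not pass in any fraction of the main edgeR fit either. Txnrd1, the cytosolic reductase that recharges thioredoxin from NADPH, stood at 306, 288 and 298 CPM in NSi inputs and at 328, 275 and 365 CPM in shDap5 inputs (0.12, SE 0.15, adjusted p = 0.754, edgeR). Srxn1, sulfiredoxin, which repairs overoxidised peroxiredoxins, stood at 41.8, 34.7 and 39.6 CPM in NSi inputs and at 41.1, 37.5 and 45.3 CPM in shDap5 inputs (0.09, SE 0.19, adjusted p = 0.860, edgeR). The arms overlapped for both genes in all 3 fractions. In heavy polysomes Srxn1 stood at 41.9, 36.3 and 60.8 CPM in NSi and 54.8, 43.2 and 74.9 CPM in shDap5. It was higher in shDap5 at each library number there (0.31, SE 0.19, adjusted p = 0.450, edgeR), and it passed with the library number as a block (0.31, adjusted p = 0.0284, edgeR).

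With the block within each fraction the count of the 9 that passed was 3 in input and 3 in light polysomes (Cyba, Nqo1 and Hmox1, all lower in both) and 4 in heavy polysomes (the same genes lower and Srxn1 higher). Over all tested genes that fit called 22.1%, 16.1% and 18.3% in input, light and heavy polysomes.

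**Figure D2:**
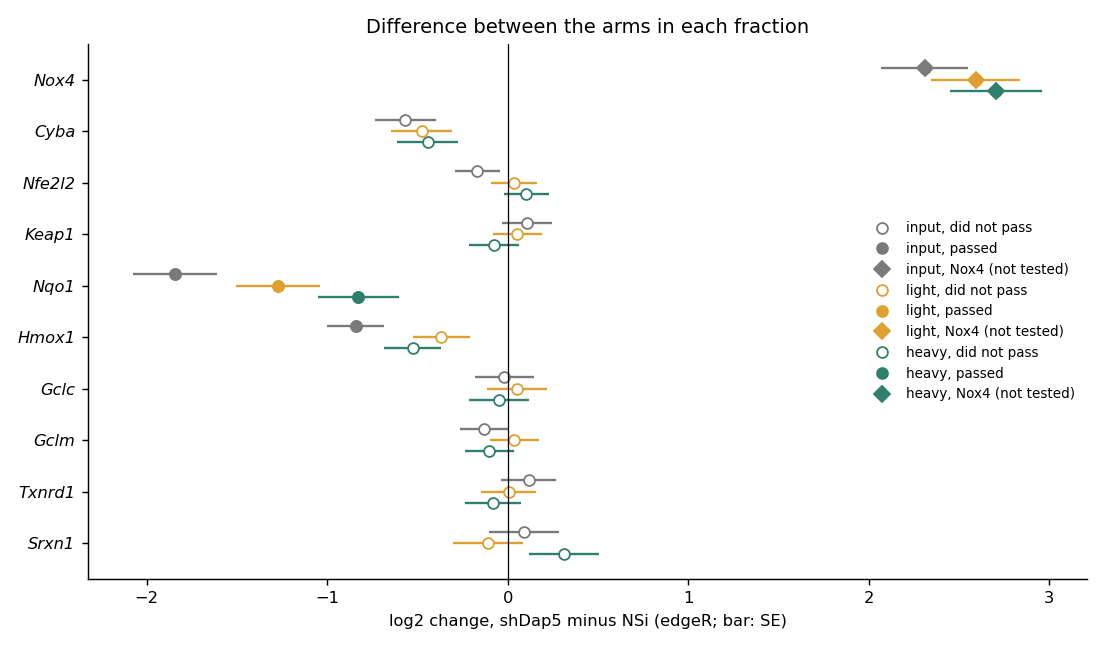
Log2 difference of shDap5 from NSi (horizontal axis, edgeR, with its SE as a bar) for each gene in input (grey), light (orange) and heavy polysomes (green), filled where the adjusted p was under 0.05 and as a diamond for Nox4, which was not tested. Nqo1 is filled in all 3 fractions and Hmox1 in input, while Nfe2l2, Keap1, Gclc, Gclm, Txnrd1 and Srxn1 lie between -0.17 and 0.31.

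The test of whether the arm difference itself changed between fractions called none of the 9 genes. That held for the arm difference in heavy relative to input, in light relative to input and in heavy relative to light polysomes, where 0% of all tested genes passed, and DESeq2 called 0 of the 9 in each. At an unadjusted p under 0.05 in edgeR there were 1, 1 and 0 of the 9, against 295, 320 and 181 of 15072 genes. The gene in heavy relative to input was Nqo1, and that in light relative to input was Hmox1 (0.47, SE 0.22).

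Levels were compared between genes per kilobase of exon, on the scale of CPM divided by the combined exon length of each gene. In NSi inputs Cyba was highest at 86.1 CPM per kb, then Txnrd1 at 73.0, Nfe2l2 at 48.9 and Hmox1 at 42.6. Keap1 at 18.3, Srxn1 at 13.8, Gclc at 11.8, Gclm at 8.95 and Nqo1 at 8.25 followed, and Nox4 was lowest at 1.39 CPM per kb. In shDap5 inputs Nox4 stood at 6.92 CPM per kb, above Nqo1 at 2.30 and below Gclm at 8.17. Cyba stood at 58.1 CPM per kb there, below Txnrd1 at 79.2. Cyba mRNA was thus higher per length than Nox4 mRNA in the inputs of both arms.

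More of the members passed between fractions than between the arms, as was true of all genes. Heavy polysomes carry mRNAs with many ribosomes and light polysomes those with few. In NSi, 8 of the 10 genes passed between heavy and light polysomes, 6 higher and 2 lower in heavy, against 52.6% of all genes (27% higher, 25.6% lower). In shDap5, 7 of 10 passed, 5 higher and 2 lower, against 44.5% (24.3% higher, 20.2% lower). Keap1, Nqo1, Gclc, Gclm and Txnrd1 were higher in heavy polysomes in both arms, and Nox4 and Srxn1 were lower in both.

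Gclm and Nqo1 were the furthest toward heavy polysomes. Gclm stood at 57.3, 46.8 and 37.8 CPM in light and 90.6, 89.2 and 90.7 CPM in heavy polysomes of NSi (log2 0.93, SE 0.14, adjusted p = 2.57e-05, edgeR), and the change was 0.79 in shDap5. Nqo1 was higher in heavy polysomes by 1.001 in NSi (SE 0.23, adjusted p = 0.00130, edgeR) and by 1.44 in shDap5 (SE 0.23, adjusted p = 0.000118, edgeR). Txnrd1 was higher by 0.69 and 0.60, Gclc by 0.59 and 0.49, and Keap1 by 0.51 and 0.38 in NSi and shDap5.

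Srxn1 stood out in the other direction. It stood at 110, 101 and 105 CPM in NSi light polysomes and at 41.9, 36.3 and 60.8 CPM in heavy polysomes, a log2 change of -1.18 (SE 0.20, adjusted p = 9.21e-05, edgeR). In shDap5 it stood at 98.2, 91.1 and 103 CPM in light and 54.8, 43.2 and 74.9 CPM in heavy polysomes, a change of -0.76 (SE 0.20, adjusted p = 0.00467, edgeR). Its partner in the pathway, Txnrd1, had the opposite sign. Hmox1 passed in NSi (0.48, adjusted p = 0.0168, edgeR) and not in shDap5 (0.32, adjusted p = 0.105, edgeR), a difference between the arms of -0.16 (SE 0.22) that did not pass. Cyba at 0.28 and 0.31 and Nfe2l2 at -0.19 and -0.12 did not pass in NSi or shDap5.

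Against input, heavy polysomes were richest in Cyba. It was higher by 1.96 in NSi (SE 0.18, adjusted p = 2.13e-07, edgeR) and by 2.08 in shDap5 (SE 0.18, adjusted p = 1.82e-07, edgeR), ratios of means of 3.89 and 4.24. In NSi, 6 of 10 genes passed, 4 higher and 2 lower, against 46.6% of all genes (26.4% higher, 20.2% lower). In shDap5, 8 of 10 passed, 6 higher and 2 lower, against 47.8% (26.7% higher, 21.2% lower). Cyba, Keap1, Hmox1 and Gclm were higher in both arms, and Nox4 and Gclc lower in both. Nqo1 was higher by 1.43 in shDap5 (adjusted p = 7.34e-05, edgeR) and by 0.41 in NSi (adjusted p = 0.138, edgeR). Srxn1 passed in shDap5 alone and narrowly (0.48, adjusted p = 0.0497, edgeR), against 0.26 in NSi, and lost that call under 9 of 13 alternative settings.

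Between light polysomes and input, members passed in both directions. In NSi, 6 of 10 genes passed, 3 higher and 3 lower, against 51.4% (26.7% higher, 24.7% lower). In shDap5, 6 of 10 passed, 4 higher and 2 lower, against 53.2% (26.4% higher, 26.8% lower). Cyba was higher in light polysomes by 1.68 in NSi and 1.77 in shDap5, and Srxn1 by 1.44 and 1.24. Gclc was lower, at -1.004 and -0.94, and so was Txnrd1, at -0.84 and -0.95. Keap1 was higher by 0.44 and 0.39. Nqo1 passed in NSi alone (-0.59, adjusted p = 0.0356, edgeR), against -0.02 in shDap5. Hmox1 passed in shDap5 alone (0.77, adjusted p = 0.000682, edgeR), against 0.29 in NSi. For neither gene did the difference between the arms pass. Gclm, at -0.08 and 0.09, passed in neither arm. The comparisons with input and with light polysomes share libraries. The calls of Keap1 between heavy and light polysomes in shDap5 (8 of 13 settings lost) and of Gclc between heavy polysomes and input in either arm (5 of 13) were also lost under alternatives, and without the shDap5 libraries numbered 1 only 4 of the 10 passed between heavy and light polysomes in shDap5.

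**Figure D3:**
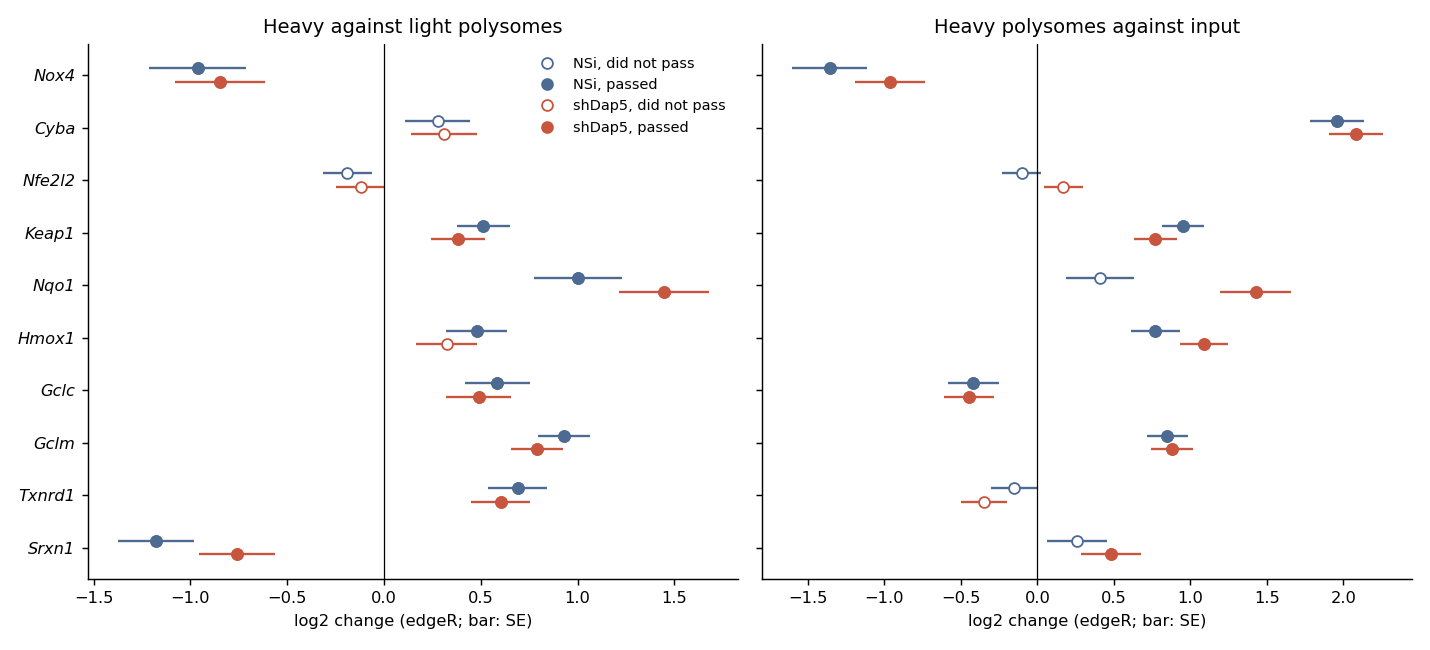
Log2 change of each gene (edgeR, SE as a bar) in heavy against light polysomes (left) and heavy polysomes against input (right), NSi in blue and shDap5 in red, filled where the adjusted p was under 0.05. Nox4 lies below 0 in both panels and arms, Gclm and Keap1 above 0, and Srxn1 is at -1.18 and -0.76 on the left and 0.26 and 0.48 on the right.

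Beyond the members, 47 further NRF2 targets were listed and 41 tested. In input 4 of them passed, against 6.95% of all genes. Gsr, glutathione reductase, rose by 0.67 (SE 0.19, adjusted p = 0.0451, edgeR). Slc7a11, the cystine importer that supplies glutathione synthesis, fell by 1.35 on the log2 scale (SE 0.26, adjusted p = 0.00396, edgeR), and Ugdh, which makes the glucuronic acid donor, fell by 0.62 (SE 0.14, adjusted p = 0.0108, edgeR). Cbr1, a carbonyl reductase, fell by 0.55 (SE 0.16, adjusted p = 0.0485, edgeR). The calls of Gsr, Ugdh and Cbr1 were lost under 5, 4 and 6 of 13 alternative settings, and that of Slc7a11 was kept under all 13. The median of the 41 in input was -0.19, with 25 below 0 and 16 above, against a median of 0.05 over all genes. In light polysomes it was -0.003, with 21 below 0 and 20 above, against -0.01 over all genes. In heavy polysomes it was -0.06, with 23 below 0 and 18 above, against 0.01 over all genes.

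Slc7a11 was lower in shDap5 in each fraction, past the threshold in input and light polysomes. It stood at 17.4, 13.4 and 17.3 CPM in NSi inputs and 6.03, 7.74 and 5.13 CPM in shDap5 inputs. In light polysomes it stood at 9.79, 9.42 and 9.93 CPM against 5.41, 4.76 and 4.20 CPM (-1.02, adjusted p = 0.0416, edgeR), and in heavy polysomes at 13.5, 12.001 and 9.65 CPM against 6.19, 8.78 and 3.42 CPM (-0.94, adjusted p = 0.0543, edgeR). No shDap5 library overlapped the NSi libraries of its fraction. Slc7a11 was the 1 further target called in light polysomes, against 3.47% of all genes, and Ugdh the 1 in heavy polysomes (-0.58, adjusted p = 0.0267, edgeR), against 3.95%. Those light and heavy calls were lost under 5 and 6 of 13 alternative settings. In heavy polysomes Slc7a11 passed under 6 of the 13.

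The counts differed between fits. With the library number as a block within each fraction, 16 of the 41 passed in input (4 higher, 12 lower), 10 in light (7 higher, 3 lower) and 10 in heavy polysomes (4 higher, 6 lower), against the 22.1%, 16.1% and 18.3% that this fit called over all genes. In input the count was 8 without shDap5 input 2, 1 without the libraries numbered 1 of NSi or of shDap5, and 2 without those numbered 2 or 3 of NSi or 3 of shDap5.

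By function, the targets of quinone, heme and iron handling had a median of -0.43 in input, with Nqo1 and Hmox1 the 2 of 9 that passed. The median of that list was -0.005 in light and -0.19 in heavy polysomes. The ferritin genes Ftl1 (-0.46, SE 0.30) and Fth1 (-0.25, SE 0.38) did not pass. Ftl1 stood at 352, 414 and 351 CPM in NSi inputs 1, 2 and 3 and at 203, 388 and 222 CPM in shDap5 inputs. Its shDap5 input 2 thus lay within the NSi range. The detoxification and efflux targets had a median of -0.47 in input, with Ugdh and Cbr1 the 2 of 11 that passed. The median of that list was -0.10 in light and -0.25 in heavy polysomes. The 15 glutathione genes tested had a median of -0.13, with Gsr higher and Slc7a11 lower. All 6 thioredoxin targets lay between 0.01 and 0.14 in input and none passed, and none of the 6 genes of NADPH supply passed, with a median of 0.12. At an unadjusted p under 0.05 there were 0 of the thioredoxin and 2 of the NADPH supply genes, against 2945 of all 15072 genes. DESeq2 called none of either. With the block within fraction edgeR called none of the thioredoxin genes and G6pdx and Me1 of the NADPH supply genes in input, against its 22.1% of all genes.

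Among the genes that remove peroxide and superoxide, 17 of 19 were tested. In input Prdx3, the mitochondrial peroxiredoxin, rose by 0.53 (adjusted p = 0.0296, edgeR) and Sod3, the secreted superoxide dismutase, fell by 1.44 on the log2 scale (adjusted p = 0.0250, edgeR). None passed in light or heavy polysomes with edgeR. At an unadjusted p under 0.05 there were 3 and 4, against 2428 and 2585 of all 15072 genes. DESeq2 called 4 in input, 1 in light (Prdx3) and 0 in heavy polysomes. With the block within each fraction edgeR called 6 in input, 5 in light and 5 in heavy polysomes, Prdx2, Prdx3 and Sod3 in all 3, against its 22.1%, 16.1% and 18.3% of all genes. The calls of Prdx3 and Sod3 in input were lost under 6 and 5 of 13 alternative settings.

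**Figure D4:**
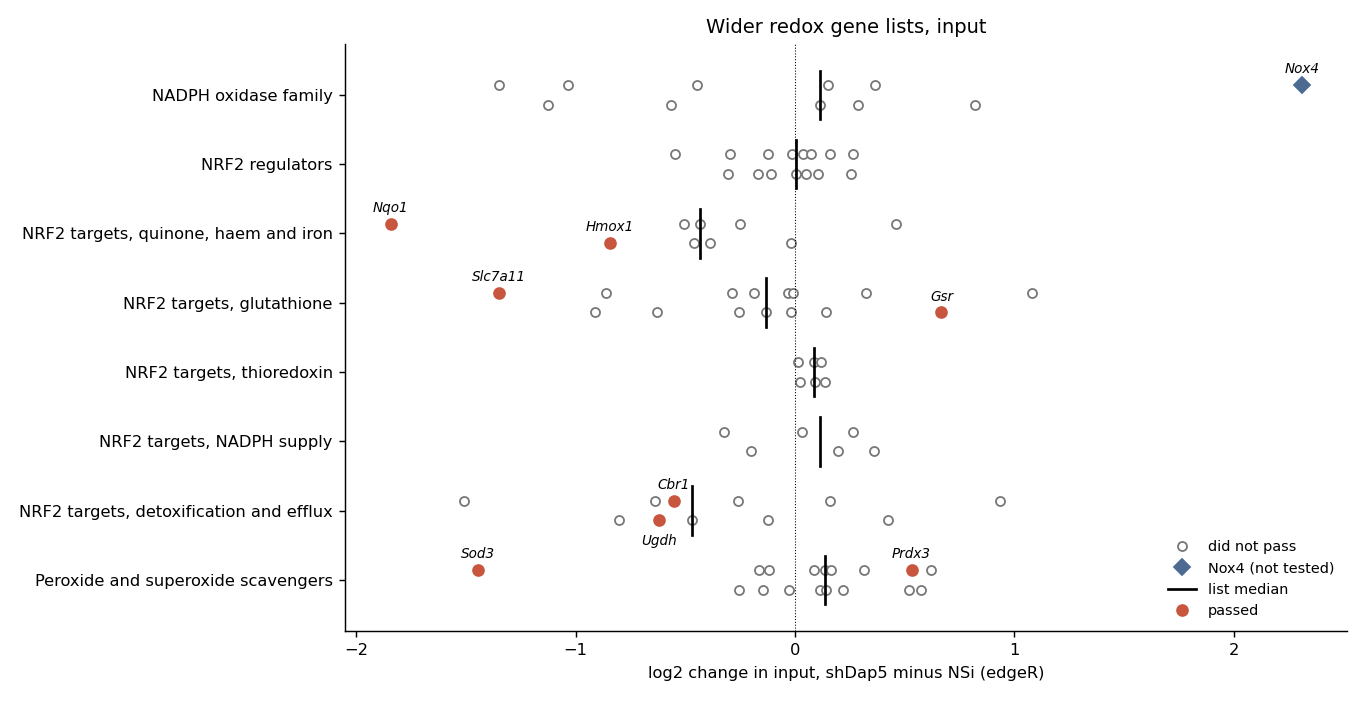
Log2 difference of shDap5 from NSi in input (horizontal axis, edgeR) for every tested gene of 8 redox lists, with the list median as a black line, genes with an adjusted p under 0.05 in red and Nox4, not tested, as a blue diamond. Nqo1, Hmox1, Slc7a11, Ugdh, Cbr1 and Sod3 are lower and Gsr and Prdx3 higher, while the thioredoxin targets lie close to 0.

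The pattern of Nox4 over the 18 libraries was set beside that of 10307 tested genes whose mean reached 5 CPM, as the Pearson correlation of log2 CPM. Among the 5 most alike were Klhl15 (r = 0.959), Tcf7l2 (0.950), B4galt6 (0.926) and Zfp532 (0.925). Since Nox4 was chosen for its difference between the arms, genes with a like difference rank high by construction, and the libraries of an arm share a line. Within the 9 NSi libraries alone, r was 0.844 for Klhl15 and 0.470 for B4galt6, and within the 9 shDap5 libraries it was 0.735 and 0.552. Klhl15 stood at means of 9.17 CPM in NSi and 18.4 CPM in shDap5 inputs. Of the members, Nqo1 (r = -0.829) and Hmox1 (-0.735) were furthest from Nox4 over the 18 libraries, and Txnrd1 (-0.01) and Nfe2l2 (0.05) lay near 0. Members lower in shDap5 rank low by construction too. Within the 9 NSi and the 9 shDap5 libraries, r was -0.956 and -0.850 for Keap1 and -0.856 and -0.794 for Gclm. It was -0.507 and -0.641 for Nqo1, -0.934 and -0.468 for Hmox1, and 0.580 and -0.169 for Nfe2l2.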

How the data were processed

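Polyadenylated RNA was sequenced from stranded libraries, per the labels' protocols. Each deposited file holds the raw count of every symbol in 1 library, not normalized by the authors. Reads were aligned with Bowtie to mm9, per the submitters' processing notes; the version, the counting program, the annotation and the use of strand were each not given in the sources used here, so overlapping or antisense genes may share reads. Of the symbols, 27 were written as dates, and none of these is used.

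The test was edgeR's quasi-likelihood F test (edgeR 4.0.16, R 4.3.3, robust, TMM), after filterByExpr at its minimums (count 10, total 15). One model with 1 mean per group took all 18 libraries, leaving 12 residual degrees of freedom (common biological coefficient of variation 0.227), and p-values were adjusted by Benjamini-Hochberg over 15072 genes within a comparison. "Passed", "rose", "fell" and "called" mean an adjusted p under 0.05, and the SE is the log2 change divided by the square root of F. Tests were two-sided. Alternatives were RLE scaling, no filter, DESeq2 1.42.0, the library number as a block, only the 6 libraries compared, and leaving out libraries. Exon lengths came from GENCODE M21 (GRCm38) and served only for levels per kilobase. A symbol with 0 counts could have stood at up to 3 counts, which covers counting error only. No replicate pair agreed within sampling noise (lowest chi-square per degree of freedom 9.57). Among the shDap5 inputs this value was 133 and 132 for library 2 against libraries 1 and 3, and 11.9 between libraries 1 and 3. Input 2 of shDap5 thus stood apart from the other inputs of its arm. Pairs within the polysome groups ran from 71.4 to 436.

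Library numbers come from the titles. The correlation of deviations from the group means was over 0.1 in 9 of 9 pairs of arms within a fraction (0.133 to 0.826) and in 6 of 6 pairs of heavy and light polysomes within an arm (0.511 to 0.763), so the numbers were read as pairs there. It was over 0.1 in 3 of 6 pairs of heavy polysomes and input and 2 of 6 of light polysomes and input, which were not read as pairs. The main edgeR fit, which gave the figures and every edgeR value not marked otherwise, did not use the pairs. The fits with a block within fraction or within arm did.

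The members, the lists of further redox genes and the rule for naming genes (all members, called list genes, at most 4 per list and comparison, and the 5 genes most like Nox4) were chosen with earlier results of these data known. Genes named outside that rule, such as Rac1, Maff, Ftl1 and Fth1, were chosen after their values were seen. Some genes that the rule or the lists would name are not reported here.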

Additional observations from a re-analysis of the deposited data

How the results depend on the processing

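The values of Nqo1 and Hmox1 kept their sign in the comparisons of the arms under every alternative, and Nox4 ranged from 2.10 to 2.43 in input. Of 1530 alternative values of single members, 1403 kept direction and call, 57 lost a call, 28 gained one, 1 moved by more than its SE and 41 changed sign, none of them called in either setting; no direction is drawn from those. The untested Nox4 value for heavy relative to light, 0.11, was -0.0040 without NSi 2. The 9 genes counted in the comparisons of the arms gave 3 calls in light polysomes with the replicate block within fraction. In heavy polysomes they gave 0 with no filter or with only the 6 libraries compared, 2 with DESeq2 or the replicate block over all libraries, and 4 with the block within fraction. In shDap5 heavy against light, 4 of 10 passed with only the 6 libraries compared. The block within fraction changed no call of the members beyond those given for Cyba, Hmox1 and Srxn1, and the block within arm changed none between heavy and light polysomes.

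Leaving out libraries gave 1 to 3 calls in input (1 without shDap5 1), 0 to 1 in light (0 without NSi 2), 0 to 2 in heavy polysomes (0 without NSi 1, NSi 2, NSi 3, shDap5 1 or shDap5 3, and 2 without shDap5 2), and 0 in each comparison between fractions of the arm difference. It gave 6 to 8, 5 to 6 and 4 to 7 in NSi for heavy against light, heavy against input and light against input, and 4 to 8 (4 without shDap5 1), 6 to 9 and 5 to 6 in shDap5. The further NRF2 targets, whose alternatives were chosen after seeing the data, gave in input 2 with no filter, 7 with DESeq2, 8 with the block or only the 6 libraries and 16 with the block within fraction. In light polysomes they gave 4 with DESeq2 or the block and 10 with the block within fraction, and in heavy polysomes 2 with DESeq2, 4 with the block, 10 with the block within fraction and 0 with only the 6 libraries. Leaving out libraries gave 1 to 8, 0 to 1 and 0 to 2. The cause of these changes was not tested.

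Uncalled values crossed 0 when libraries were left out. In the comparisons of the arms, in input Gclc ran from -0.083 to 0.049. In light polysomes Nfe2l2 ran from -0.0042 to 0.12, Keap1 from -0.026 to 0.17, Gclc from -0.12 to 0.18, Gclm from -0.10 to 0.20, Txnrd1 from -0.041 to 0.071 and Cbr1 from -0.018 to 0.11. In heavy polysomes Keap1 ran from -0.13 to 0.029, Gclc from -0.13 to 0.082 and Txnrd1 from -0.15 to 0.054. For heavy relative to input, Cyba ran from -0.12 to 0.33, Gclc from -0.18 to 0.16 (0.00051 with no filter), Gclm from -0.010 to 0.068 and Txnrd1 from -0.37 to 0.033. For light relative to input, Keap1 ran from -0.16 to 0.089, Gclc from -0.17 to 0.24 and Txnrd1 from -0.22 to 0.048. For heavy relative to light, Cyba ran from -0.23 to 0.27, Nfe2l2 from -0.069 to 0.17 and Gclm from -0.30 to 0.0046. For light against input, Nfe2l2 ran from -0.018 to 0.16 and Gclm from -0.22 to 0.025 in NSi, and Nox4 from -0.15 to 0.095 and Nqo1 from -0.21 to 0.33 in shDap5, where Nqo1 was 0.011 with the replicate block within arm. RLE scaling shifted the median of all genes by at most 0.07.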
